A study of Homo sapiens with 6 samples.

Results

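The subject of this report is a run of 18 probe sets, numbered 8165648 to 8165690, on an Affymetrix whole-transcript human gene array, together with the 5 other probe sets listed for the genes that appear in it. These 23 probe sets were taken from 33297 on the array, and they were selected on measured values of these same arrays, because the run stood out among the differences between CD47- and WT EVs. Of the 18 probe sets in the run, 4 were listed with a gene in the platform annotation (MPLKIP, MTND2P28, SH3KBP1 and FAF2) and 14 with no gene. RNA came from EVs of WT Jurkat cells (JK, a human T cell leukemia line) and of JinB8 cells, a Jurkat mutant that lacks CD47, with 3 arrays for each. Both lines were grown without serum for 24 to 48 h before their EVs were collected, and each array received label made from 300 ng of RNA. The labels name no treatment for either group, and the CD47- group is a single mutant line, so the loss of CD47 and any other difference of that line cannot be told apart. EVs were isolated with Exo-quick or Exo-spin, and the labels do not say which preparation had which kit.

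Mitochondria carry a small circular genome that is transcribed along both strands into long precursors, which are then cut into ribosomal RNAs, transfer RNAs and mRNAs for subunits of the respiratory chain. These transcripts are abundant in most cells. Pieces of the mitochondrial genome were also copied into the nuclear chromosomes during evolution, where they lie as pseudogenes, so that a probe designed for such a copy can bind the mitochondrial RNA as well. MTND2P28 is a pseudogene of this kind, a copy of the gene for the complex I subunit ND2. Of the other genes named in the run, SH3KBP1 encodes an adaptor protein of receptor endocytosis, FAF2 a ubiquitin-binding protein of the endoplasmic reticulum and lipid droplets, and MPLKIP a nuclear protein affected in a form of trichothiodystrophy.

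A log2 value compares a transcript with the rest of the RNA in the same EVs, so more of a transcript and less of the other RNAs in the EVs cannot be told apart. The medians of the 6 arrays lay between 5.08 and 5.14. Background was gauged with the 360 probe sets of olfactory receptors, genes that T cells do not normally express, which had a median of 5.45 and a 95th percentile of 6.78. Of the T cell marker genes 10 of 11 were measured, and 7 of them lay above this median and 2 (CD7 and LCK) above the 95th percentile. None of the 4 B cell, 4 myeloid, 2 erythroid and 3 platelet markers measured lay above that percentile. Above the median lay 2 of the B cell, 1 of the myeloid, 2 of the erythroid and 1 of the platelet markers. CD47 itself had a mean of 4.72, below the olfactory receptor median. It differed by 0.02 (standard error 0.10) between the groups, and this probe set does not check the labels. Over all probe sets, limma called 174 higher in CD47- EVs (0.523%) and 7 lower (0.021%) at an adjusted p under 0.05, and in 7.31% every CD47- array lay above every WT array.

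The 4 genes listed in the run belong to 4 chromosomes, and the run lies between the probe sets of chromosome 9 and those of chromosome X. The numbers of the probe sets follow the chromosomes in the alphabetical order of their names, and 97.5% of the 19424 pairs of neighboring probe sets with a placed gene shared a chromosome. The run lies after the last genes of chromosome 9, which end with TMEM203, and before the first gene of chromosome X, PLCXD1. Between these genes stand 29 probe sets, which are the 18 of the run, 2 before it and 9 after it, and none of the 11 outside the run had a gene listed. In the RefSeq annotation SH3KBP1 is on chromosome X, FAF2 on chromosome 5, MPLKIP on chromosome 7 and MTND2P28 on chromosome 1. Chromosome X does follow the run, but the other probe set of SH3KBP1 lies elsewhere in the numbering, between MAP3K15 and BCLAF3 of chromosome X.

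The array lists no probe set for any of the 37 genes of the mitochondrial genome. MTND2P28 was the only nuclear copy of a mitochondrial gene that could be found by its symbol. The annotation therefore does not say which RNA the run reports, and whether its signal came from mitochondrial transcripts was not tested. The probe sets of the run with a gene were listed with 1 transcript for MPLKIP, 3 for MTND2P28, 1 for SH3KBP1 and 6 for FAF2, and none of these transcripts was a RefSeq mRNA. The other probe set of SH3KBP1 was listed with 10 transcripts, of which 3 were RefSeq mRNAs.

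Every probe set of the run was higher in CD47- EVs than in WT EVs. The differences lay between 0.99 and 2.00 on the log2 scale with a median of 1.74, a median fold of 3.33, and the median difference of all probe sets was -0.0018. In 18 of 18 probe sets all 3 CD47- arrays lay above all 3 WT arrays, against 7.31% of all probe sets, and limma called 17 of 18 higher, against 0.523%. Because the run was chosen for these values, the counts describe it and are no test of it. The probe set that was not called, 8165663, was the dimmest of the run. Leaving out WT replicate 1 or CD47- replicate 2 gave a count of 9, leaving out CD47- replicate 3 a count of 8 and leaving out WT replicate 3 a count of 7, and in each of these cases all 18 differences stayed above 0. With a test that shares no variance between probe sets, none of the 18 was called.

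**Figure D1:**
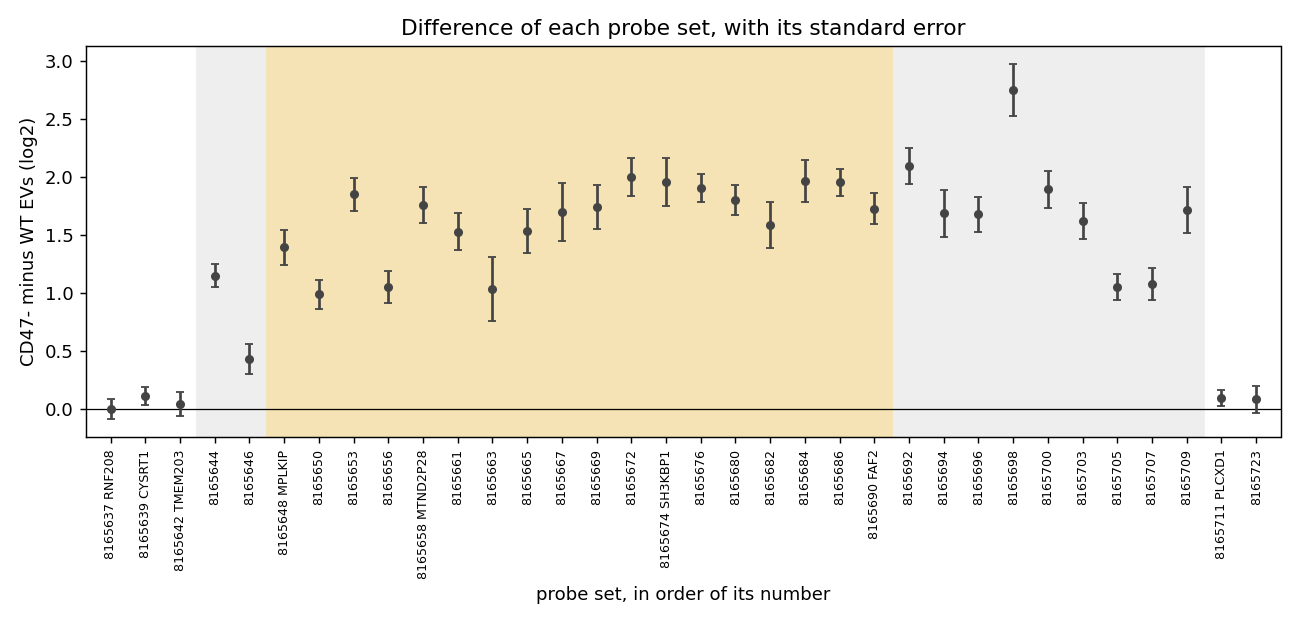
Difference between CD47- and WT EVs on the log2 scale (vertical axis) for probe sets in the order of their numbers (horizontal axis), with bars for the standard error from limma and 3 arrays in each group. The 18 probe sets of the run (yellow) and the 11 unnamed probe sets beside it (grey) all lie above 0, and the probe sets of TMEM203 and PLCXD1 on either side differ by 0.05 and 0.10.

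SH3KBP1 had the largest difference of the 4 listed genes. Its probe set in the run read 8.346, 8.999 and 8.805 in WT EVs and 10.31, 10.92 and 10.80 in CD47- EVs. The lowest CD47- array was above the highest WT array, and the difference was 1.96 (standard error 0.21), a fold of 3.90. The other probe set of SH3KBP1, among its neighbors on chromosome X, read 4.51, 4.60 and 4.51 in WT EVs and 4.47, 4.70 and 4.75 in CD47- EVs. These groups overlap, with a difference of 0.10 (standard error 0.09), and all 6 values lie below the olfactory receptor median. From WT to CD47- EVs, the gap between the probe sets of SH3KBP1 widened from 4.18 ± 0.30 (SD, n = 3) to 6.04 ± 0.19 (SD, n = 3), so the difference reported by one probe set exceeded that of the other by 1.87 (standard error 0.20). A probe set this dim might not show a change, and whether it could was not tested.

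FAF2 showed the same contrast between its probe sets. The one in the run read 10.01, 10.11 and 9.94 in WT EVs and 11.44, 11.90 and 11.90 in CD47- EVs, a difference of 1.73 (standard error 0.13) and a fold of 3.31, with no overlap between the groups. Probe set 8110169, which lies between the chromosome 5 genes HIGD2A and CDHR2, read 4.70, 4.59 and 4.94 in WT EVs and 4.94, 4.54 and 4.66 in CD47- EVs. Here the groups overlapped, and the difference was -0.03 (standard error 0.13). The third probe set, 8059361, was listed for WDFY1 as well as FAF2 and lies between AP1S3 and SERPINE2 of chromosome 2. It read 5.45, 5.38 and 5.25 in WT EVs and 5.11, 5.04 and 5.25 in CD47- EVs, a difference of -0.23 (standard error 0.09) that limma did not call (adjusted p = 0.554). From WT to CD47- EVs, the gap between the run's probe set and 8110169 widened from 5.28 ± 0.26 (SD, n = 3) to 7.03 ± 0.46 (SD, n = 3). This change was 1.75 (standard error 0.31), and these 2 probe sets had no listed transcript in common. The run's probe set and 8059361 had 1 in common. For SH3KBP1 and MPLKIP, the run's probe set also had 1 listed transcript in common with each other probe set of its gene.

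MPLKIP differed from SH3KBP1 and FAF2 in that a probe set outside the run was also higher. In the run, the MPLKIP probe set read 7.67, 7.74 and 7.58 in WT EVs and 8.77, 9.38 and 9.03 in CD47- EVs. Probe set 8137008, which lies between OR2A14 and CNTNAP2 of chromosome 7, read 7.13, 7.41 and 7.25 in WT EVs and 8.20, 8.81 and 8.35 in CD47- EVs. In both probe sets the groups did not overlap, WT replicate 2 was the highest WT array, and CD47- replicate 2 was the highest and replicate 1 the lowest CD47- array. The differences were 1.40 (standard error 0.15) and 1.19 (standard error 0.16), and the gap between these probe sets changed by 0.21 (standard error 0.08).

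The third probe set of MPLKIP, 8139203, gave no such difference. It read 5.43, 5.33 and 5.37 in WT EVs and 5.36, 5.38 and 5.38 in CD47- EVs, a difference of -0.0038 (standard error 0.07). It was listed with 3 transcripts, 1 of them a RefSeq mRNA, and it was the only MPLKIP probe set with a RefSeq mRNA, since 8137008 was listed with 1 transcript and no RefSeq mRNA. The run's probe set exceeded 8139203 by 2.28 ± 0.11 (SD, n = 3) on WT arrays and by 3.69 ± 0.30 (SD, n = 3) on CD47- arrays.

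**Figure D2:**
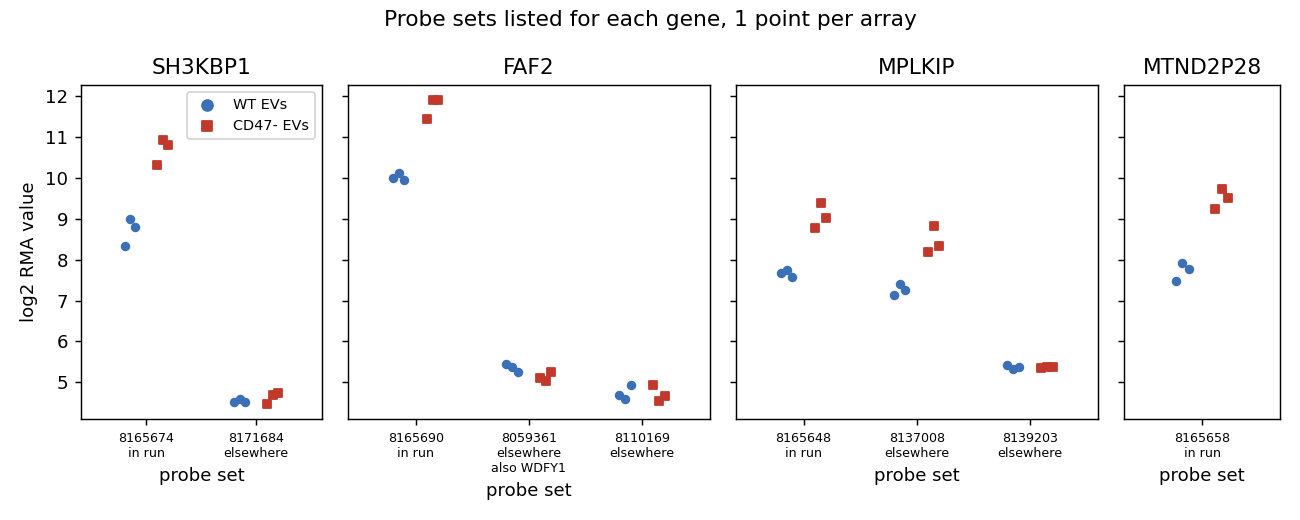
log2 RMA values (vertical axis) of each probe set listed for SH3KBP1, FAF2, MPLKIP and MTND2P28 (horizontal axis), with 1 point for each of the 3 WT (blue circles) and 3 CD47- (red squares) arrays. The probe sets in the run and probe set 8137008 of MPLKIP separate the groups, and the other 4 probe sets lie below 6 with overlapping groups.

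MTND2P28, the copy of a mitochondrial gene, had no probe set outside the run. It read 7.49, 7.93 and 7.78 in WT EVs and 9.24, 9.72 and 9.51 in CD47- EVs, without overlap. The difference was 1.76 (standard error 0.15), a fold of 3.39, and lay close to the median of the run.

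The disagreement between the probe sets of these genes was set beside that of other genes. It is built from the same differences that chose the run, so a high spread was fixed by that choice and the ranks are a description only. Of 769 genes with several probe sets of a single symbol, the largest minus the smallest difference within a gene had a median of 0.073 and a 95th percentile of 0.387. SH3KBP1, FAF2 and MPLKIP ranked 1, 2 and 3 with 1.87, 1.75 and 1.40, and they were the only 3 genes above 1. Probe set 8059361, listed for WDFY1 and FAF2, was left out of this ranking. The difference of the run's FAF2 probe set exceeded that of 8059361 by 1.96 (standard error 0.16), more than the spread of SH3KBP1. EYS came next with 0.92, followed by LRRFIP1 with 0.78 and MALAT1 with 0.76. The mean levels of the probe sets of a gene were also far apart, by 6.15 for FAF2, 5.11 for SH3KBP1 and 2.98 for MPLKIP, where the median gene had 0.491. MPLKIP lay just below the 95th percentile of 3.00 in this measure. Levels of different probe sets depend on how strongly their probes bind and on what they bind, so a gap in level by itself is no sign of an error.

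**Figure D3:**
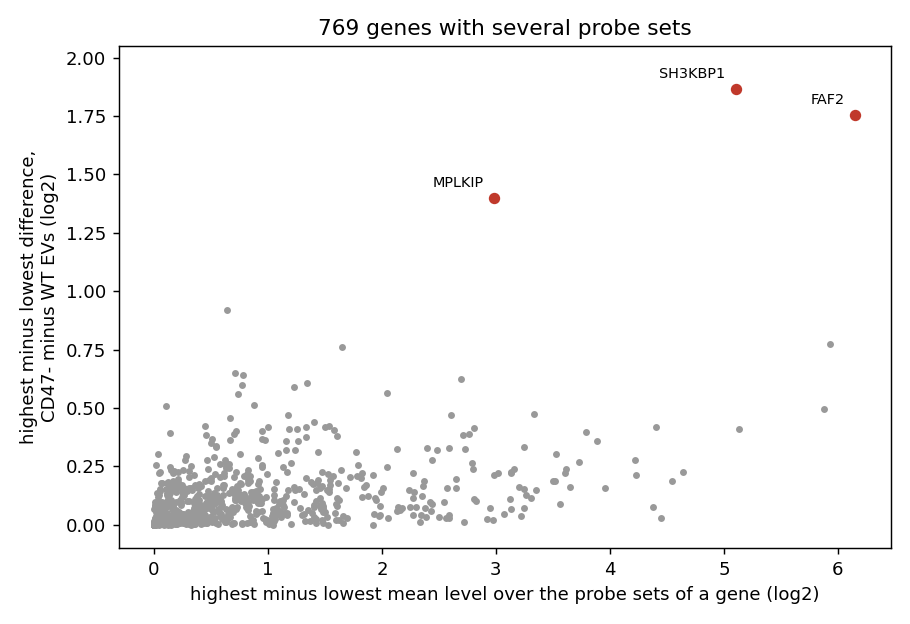
Each of 769 genes with several probe sets, by the highest minus lowest mean log2 level over its probe sets (horizontal axis) and the highest minus lowest difference between CD47- and WT EVs (vertical axis, log2). SH3KBP1, FAF2 and MPLKIP (red) lie above 1 on the vertical axis, and the other genes (grey) reach 0.92.

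The 14 probe sets of the run with no gene gave differences like those of the named ones, with a median of 1.72. The largest was that of 8165672, which read 5.27, 5.49 and 5.48 in WT EVs and 7.11, 7.78 and 7.36 in CD47- EVs, a difference of 2.00 (standard error 0.16). Its WT values lay near the olfactory receptor median and its CD47- values above the 95th percentile. Probe sets 8165684, 8165686 and 8165676 followed with differences of 1.97, 1.96 and 1.91. The steadiest in WT EVs was 8165653, which read 8.82, 8.85 and 8.82 there and 10.36, 10.94 and 10.77 in CD47- EVs, a difference of 1.86 (standard error 0.14).

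The brightest probe sets of the run did not have the largest differences. Probe set 8165661 read 10.36, 10.54 and 10.09 in WT EVs and 11.57, 11.98 and 12.04 in CD47- EVs, a difference of 1.53 (standard error 0.16). Probe set 8165650 read 10.54, 10.72 and 10.28 in WT EVs and 11.40, 11.65 and 11.47 in CD47- EVs, and its difference of 0.99 (standard error 0.13) was the smallest of the run. Probe set 8165665 had a mean of 10.7 and a difference of 1.54. In each of these 3 probe sets the groups were apart.

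The least certain member was 8165663. It read 2.58, 2.65 and 3.05 in WT EVs and 3.25, 4.41 and 3.72 in CD47- EVs, a difference of 1.04 (standard error 0.27). The groups did not overlap, but the SD of 0.579 in CD47- EVs was the largest of the run in that group. It was the 1 probe set of the run below the olfactory receptor median, and 16 of 18 exceeded the 95th percentile of the olfactory receptors on average, as did 10.4% of all probe sets. The remaining probe sets of the run (8165656, 8165667, 8165669, 8165680 and 8165682) had differences from 1.05 to 1.80.

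**Figure D4:**
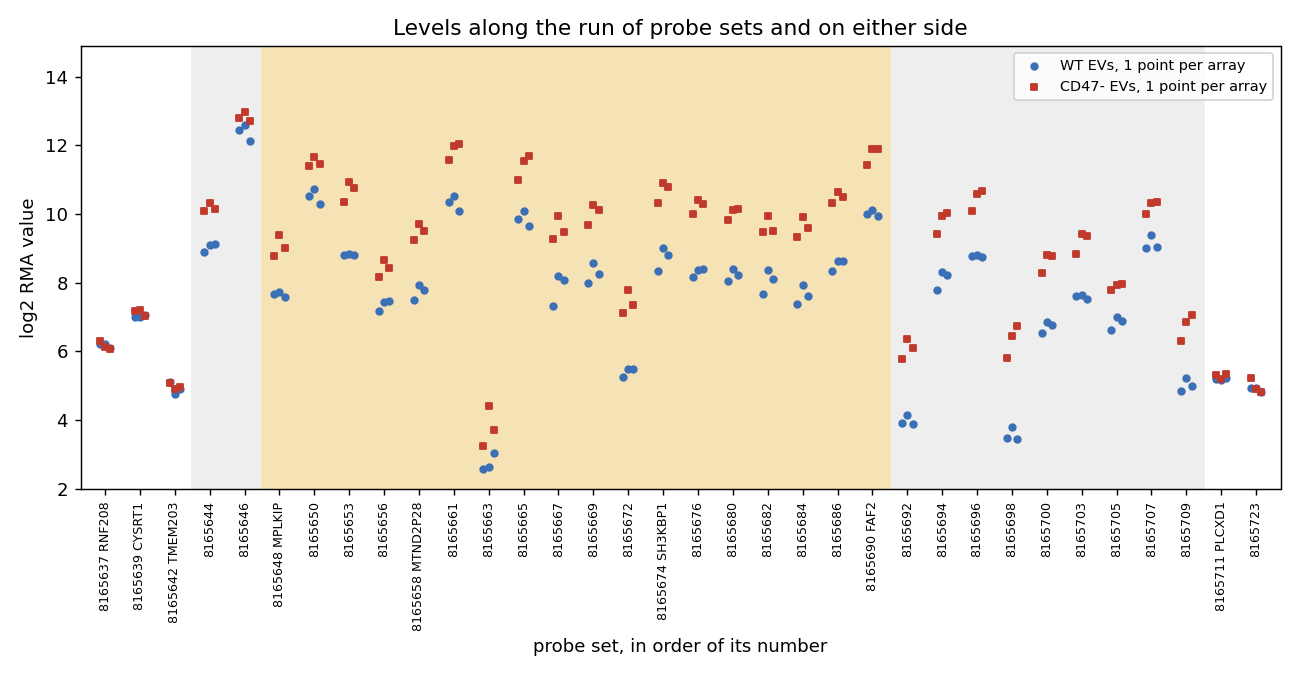
log2 RMA values (vertical axis) of the run (yellow), of the unnamed probe sets beside it (grey) and of probe sets further out (white), in the order of their numbers (horizontal axis), with 1 point for each of the 3 WT (blue circles) and 3 CD47- (red squares) arrays. The white probe sets are those of placed genes and the unnamed 8165723. The 2 groups are apart in every probe set of the shaded stretch and overlap in every probe set shown outside it.

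The separation did not stop at the bounds of the run. Just inside them, MPLKIP (8165648) differed by 1.40 and FAF2 (8165690) by 1.73. Just outside, 8165646 differed by 0.44 and 8165692 by 2.10. In all 11 probe sets of the gap outside the run every CD47- array lay above every WT array, against 7.31% of all probe sets. Of these 11, limma called 10 higher, against 0.523% of all probe sets. These values belong to the contrast that chose the run and are given as a description.

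The gap also held the largest and one of the smaller differences near the run. Probe set 8165698 read 3.47, 3.80 and 3.46 in WT EVs and 5.80, 6.45 and 6.73 in CD47- EVs. Its difference of 2.75 (standard error 0.23) was the largest of all 33297 probe sets, tied with its exact copy 7911339. Its WT values lay below the olfactory receptor median, and its CD47- values stayed below the 95th percentile of the olfactory receptors. The brightest of the gap, 8165646, read 12.46, 12.60 and 12.13 in WT EVs and 12.81, 12.97 and 12.72 in CD47- EVs, a difference of 0.44 (standard error 0.13), and was not called. The other 9 differed by 1.06 to 2.10. Outside the gap the separation ended at once, with 0.05 (standard error 0.10) for TMEM203, 0.12 for CYSRT1 and 0.0029 for RNF208 on one side and 0.10 (standard error 0.07) for PLCXD1 on the other.

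Some of these probe sets had exact copies elsewhere on the array. On the whole array 974 probe sets (2.93%) had the same 6 values as another probe set. In the run this held for 1 of 18, 8165667, whose values were those of probe set 7896752 near the start of the numbering, where the next placed gene is SEPTIN7P13 of chromosome 1. In the rest of the gap it held for 5 of 11. Probe sets 8165694, 8165696, 8165698 and 8165703 had copies between PGBD2 and LINC00115 of chromosome 1, 8165696 had a second copy between AKAP6 and NPAS3 of chromosome 14, and 8165707 had one between KIAA0825 and MCTP1 of chromosome 5. Such pairs are 1 measurement and not 2, and the signal of a pair cannot be told apart by place. Of the 50 largest positive differences on the array, 14 were in the run, 7 in the rest of the gap and 6 were such copies, and none of the other 23 had a gene listed.

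The arrays of a group differed together across the run. The mean over its 18 probe sets was 7.95, 8.28 and 8.13 in WT EVs and 9.47, 10.01 and 9.80 in CD47- EVs. The group means were 8.12 ± 0.17 (SD, n = 3) and 9.76 ± 0.27 (SD, n = 3), a difference of 1.64 (standard error 0.183), so the lowest CD47- array lay above the highest WT array. CD47- replicate 1 was the lowest of its group in 18 of 18 probe sets, and replicate 2 was the highest in 14 and replicate 3 in 4. In WT EVs replicate 2 was the highest in 14 and replicate 3 in 3, and they tied in 1. The probe sets of the run varied more between arrays of a group than most, with a median SD of 0.218 in WT EVs and 0.279 in CD47- EVs against 0.104 and 0.101 over all probe sets. Because they moved together, the 18 probe sets are not 18 independent observations, and the number of arrays limits the precision.

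The profile of the run over the 6 arrays was compared with that of every gene with a single symbol, as the root mean square difference of log2 values after each profile was set to a mean of 0. This distance includes the difference between the groups, which chose the run, and the mean profile contains the run's own probe sets. The distances are therefore a description only. Within the run the distance from the mean profile lay between 0.073, for MTND2P28, and 0.390, for 8165663. The closest 5 genes outside were the linker histone gene H1-4 (0.233), the lactate dehydrogenase gene LDHA (0.265), the cell cycle kinase gene CDK6 (0.294), the antigen-presenting CD1 family gene CD1E (0.297) and the actin-binding thymosin gene TMSB10 (0.307). Their differences were 1.23, 1.29, 1.34, 1.16 and 1.09, below the median of the run. Probe set 8137008 of MPLKIP had a distance of 0.239, and the other 4 probe sets of the listed genes had distances from 0.781 to 0.960.

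**Figure D5:**
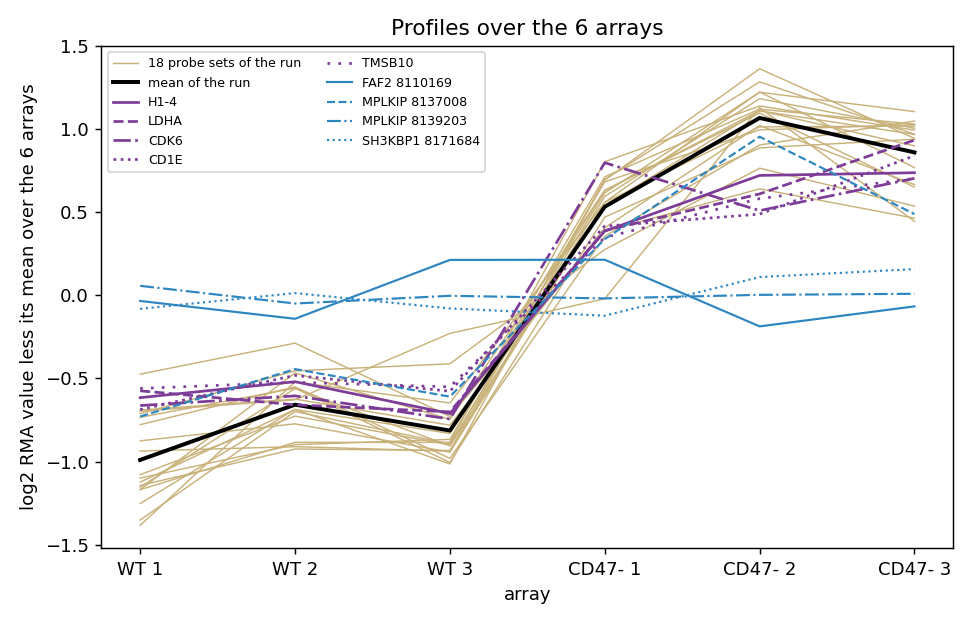
log2 RMA values less their mean over the 6 arrays (vertical axis) for each array (horizontal axis), for the 18 probe sets of the run (tan), their mean (black), the 5 genes with the closest profile (purple) and 4 probe sets of the listed genes outside the run (blue). Lines only join the values of a probe set, since the arrays have no order, and 8137008 of MPLKIP follows the run while the other blue lines stay near 0.

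SLIRP was the only gene called among the nuclear genes that maintain, copy and express the mitochondrial genome. Of 44 such genes 41 were measured, and limma called 1 higher, none lower and 40 not. Their median difference was 0.02, and 26 of 41 lay above 0, as did 10019 of 19456 probe sets of 1 symbol outside the run. Most of the 41 had a mean below the olfactory receptor median. The brightest, FASTK, with a mean of 6.74, lay below the 95th percentile. Whether the dim ones could show a change was not tested. At an unadjusted p under 0.05 from limma there were 4 of the 41, all higher. The share of all probe sets under that threshold was not counted, so these 4 are no result about the list. SLIRP, a partner of LRPPRC that stabilizes mitochondrial mRNAs, read 6.14, 6.09 and 5.96 in WT EVs and 6.95, 7.22 and 7.33 in CD47- EVs. Its groups did not overlap, and it rose by 1.10 (standard error 0.11, adjusted p = 0.0106 from limma), a call that was lost when WT replicate 3 or CD47- replicate 2 was left out, when replicates of equal number were blocked and with unshared variance.

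OXA1L, which inserts proteins into the inner mitochondrial membrane, differed by 0.50 (standard error 0.09, adjusted p = 0.0744 from limma). The mitochondrial elongation factor TUFM and the transcription factor TFB2M each differed by 0.21 and were not called. At the other end, the primase-polymerase PRIMPOL differed by -0.16 (adjusted p = 0.685 from limma). The means of TFB2M and PRIMPOL, 4.19 and 3.48, lay below the olfactory receptor median. The share called, 1 of 41, stands beside 0.523% of all probe sets called higher and is not a result about the list.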

How the data were processed

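RNA of 6 EV preparations, 3 of WT Jurkat cells and 3 of CD47- JinB8 cells, was measured on 1 array each. The groups and replicate numbers came from the submitters' labels, which call them cell culture replicates without settling whether each came from its own culture, so p-values measure only the spread between these preparations, which may be technical. The deposited values are log2 values that the authors made with RMA in Affymetrix Expression Console, with versions not given in the sources used here. Background correction, equal distributions over the arrays and one value for each probe set are part of RMA. The labels name the human array but also call it a mouse array, and the human annotation was used. That annotation listed 19460 probe sets with 1 gene symbol, 1754 with several and 12083 with none. Chromosomes came from RefSeq genes, and 19429 probe sets with 1 symbol matched one. Coordinates are left out since no genome build is stated for the values, and no probe sequences were used here.

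The members and the gene lists were chosen with earlier results of these data known. The run was taken by probe set number. All 33297 probe sets were fitted with limma 3.58.1 in R 4.3.3 (lmFit and eBayes, no covariate), with Benjamini-Hochberg adjustment over all of them and an adjusted p under 0.05. The fit was tested on simulated data. Named were all probe sets listed for the 4 genes, the 5 brightest and the 5 most different of the run, its 3 neighbors on either side, called genes of the machinery list, the 5 genes with the closest profile and the genes whose probe sets disagreed most. Other probe sets were named after their values were seen. Where a gene of the machinery or marker lists had several probe sets, the one with the highest mean was used. The alternatives were a block for the replicate number, arrays centered on the olfactory receptors, a further quantile normalization, a mean-dependent variance and array weights. Others were a filter on dim probe sets, only probe sets of 1 symbol and those of the run, unshared variance and leaving out each array.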

Additional observations from a re-analysis of the deposited data

How the results depend on the processing

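The median difference of the run lay between 1.62 and 1.88 over the 14 alternatives, and each probe set of the run stayed higher in CD47- EVs under all of them. The filter on dim probe sets removed 8165663. The number of run probe sets called, 17, was 15 after a further quantile normalization, 7 to 15 without 1 array and 0 with unshared variance. SH3KBP1 and MPLKIP (8165648) were not called in 4 of 14 alternatives, FAF2 and MTND2P28 in 1 (unshared variance), and MPLKIP probe set 8137008 in 6. Over all probe sets, 181 were called, against 300 with the filter on dim probe sets, 317 after centering on the olfactory receptors, 1 with unshared variance and 50 to 128 without 1 array. Of the mitochondrial machinery genes, 1 was called, against 2 (SLIRP and OXA1L) with that filter, with that centering or among probe sets of 1 symbol and the run, 0 with unshared variance and 0 to 1 without 1 array. The cause of these changes was not tested. The median spread of differences between probe sets of a gene was 0.0410 instead of 0.0730 over the 278 genes whose probe sets all lay above the olfactory receptor median. SH3KBP1, FAF2 and MPLKIP are not among these genes, since each has a probe set below that median. The list of nuclear copies gave no value, because it had no member outside the run.

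Over all probe sets, arrays with the same replicate number did not deviate together. Their deviations from the group means correlated with 0.0085, -0.0027 and -0.0434. In the mean of the run, replicate 1 was the lowest and replicate 2 the highest in both groups. Whether arrays of equal number are paired for the run was not tested. With the replicate number as a block, 95 probe sets were called, 16 of the run (8165665 was lost) and 0 of the machinery genes. Leaving out an array leaves 2 in its group. The arrays have no detection calls. The dim probe sets of SH3KBP1, FAF2 and MPLKIP outside the run had means below the olfactory receptor median. Whether they could show a change was not tested.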
